A study of Mus musculus with 2 samples.

Results

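The genes described here are the chemokines and the chemokine receptors, taken as every non-control probe whose gene name in the array files starts with Ccl, Ccr, Cxcl, Cxcr, Xcl or Xcr and a number, or is Cx3cl1 or Cx3cr1. The rule used names and no measured value, and it found 55 genes on 71 probes, of 24059 named genes and 55681 non-control probes on the array. There were 35 ligands and 20 receptors. The material was intestinal segments of wild type male mice, held for 2 h in vehicle (0.05% DMSO, 0.25% ethanol) or in 0.5 µM cholic acid (CA), a bile acid that liver makes from cholesterol. RNA of the intestinal epithelial cells was then measured on 1-colour Agilent arrays, 1 array per condition. The series title asks for bile acid-dependent candidate targets of PPARα, a nuclear receptor of fatty acids. The labels give the solvent for vehicle alone, and give neither the strain or age of the mice, nor their number, nor where along the gut the segments were cut. With 1 array per condition no difference below has a replicate check, and no test, p-value or standard error can be given.

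Chemokines are small secreted proteins that guide migrating cells, each along a gradient sensed by G protein-coupled receptors on the responding cell. In the gut, epithelial cells make Ccl25, which draws T cells bearing Ccr9 to the small intestine, and Ccl28, which draws antibody-secreting cells bearing Ccr10. Interferon-γ induces Cxcl9, Cxcl10 and Cxcl11, the ligands of Cxcr3 on activated T cells, while Cxcr5 and Ccr7 with their ligands Cxcl13, Ccl19 and Ccl21 place lymphocytes in follicles and T cell zones. Ligands were divided by the source each is best known for, namely epithelium (11), interferon induction in epithelium and immune cells (3), immune cells (17), and stroma or lymphoid organs (4), although many have more than 1 source. No probe carries a Ccl21 name.

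The results turn on a few probes, which are 60-base DNA oligonucleotides. The middle 30 bases of those for Ccl24, the ligand with the lowest difference, Cxcl10, the one with the highest, Ccr6, a receptor above background on both arrays, and Ccr7, a receptor above background after cholic acid alone, are as follows, 5′ to 3′.
Ccl24, whole probe at chr5:136046667-136046726, minus strand: ccaagtttgctgtccagagacgccgtggca
Cxcl10, whole probe at chr5:92775781-92775840, minus strand: tggaagaacttgtgtcatcaagtatgtatc
Ccr6, whole probe at chr17:8449933-8449992, plus strand: gcaacattgccccaaaagccttggtgaaac
Ccr7, whole probe at chr11:99005551-99005610, minus strand: ttcctcatgttctgcttttgattcatatat
Positions are those of the array files, on mouse build mm9, and the exon or UTR under each probe was not looked up, since no annotation of that build was used here.

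Cxcl11 needs care before its values are read. RefSeq (GRCm38.p6) lists mouse Cxcl11 as a transcribed pseudogene, and both of its probes hold words that recur elsewhere in the genome. The brighter of the Cxcl11 probes shares at least 1 word of 16 bases with 55 of 32851 RefSeq promoter sequences of other genes, and the other shares one with 10. Of 33127 other named probes, 0.73% share a word with 50 or more promoters. The stretches below hold the most shared word of each probe in capitals. As background, the second resembles the mouse B1 family of short interspersed repeats.
Cxcl11, dimmer probe, bases 21 to 50, chr5:92788640-92788699: cttgaaaGGCAGAGGCAGGAGGAtctcttg
Cxcl11, brighter probe, bases 7 to 36, chr5:92788567-92788626: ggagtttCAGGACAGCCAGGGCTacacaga
The first word occurs in 3 promoters and the second in 24. Among the 71 probes of chemokine system genes, 46 share no such word and no other reaches 50 promoters, so summaries that include Cxcl11 are also given without it where it matters.

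On both arrays 26 of the 55 genes (47.3%) had a probe well above background, where 53.8% of all named genes had one. Above background means that the scanner software called the spot brighter than the local background by its stricter flag. A further 4 were above background after cholic acid alone, against 3.16% of all named genes, and 1 in vehicle alone, against 2.51%. The remaining 24 were above background on neither array, against 40.5% of all named genes. The share measured on both arrays was 6 of 11 epithelial ligands, 3 of 3 interferon-induced ligands, 8 of 17 immune cell ligands, 1 of 4 stromal and lymphoid organ ligands and 8 of 20 receptors. The interferon-induced count includes Cxcl11, with the limit on its probes given above.

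**Figure D1:**
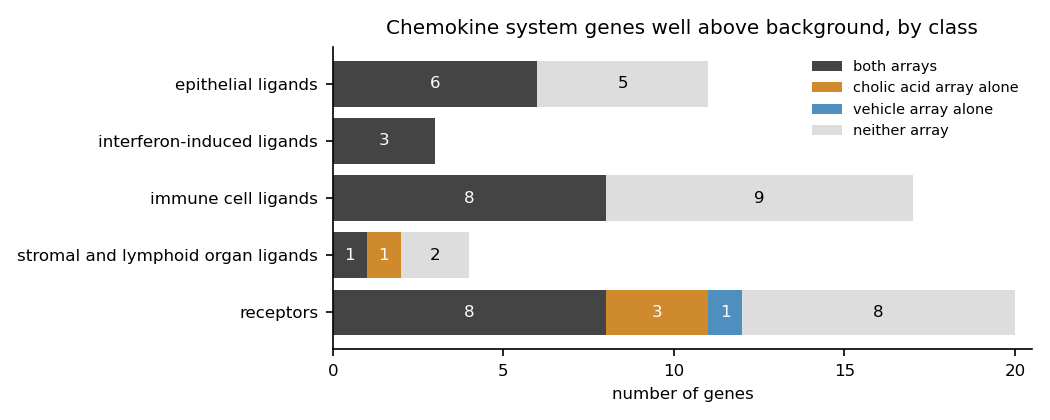
Number of genes (horizontal axis) in each class of ligand and among receptors that were well above background on both arrays, on the cholic acid array alone, on the vehicle array alone or on neither. Of the 20 receptors, 8 were above background on both arrays, 3 after cholic acid alone and 1 in vehicle alone, whereas 6 of 11 epithelial ligands were above background on both arrays and none on a single array.

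Signals are given as scanned, vehicle first. The cholic acid array was dimmer as a whole, its 75th percentile being 741 against 1060 in vehicle, so its signals were raised 1.43-fold before a difference was taken, and every difference below is on the log2 scale after this scaling, cholic acid minus vehicle. Signals of different genes are not ranked against each other, because a probe's brightness also depends on its sequence. As a yardstick, the spread is the robust SD of the differences of 1000 genes, those closest in mean brightness, which was 0.37 to 0.58 for these genes. It describes other genes on the same pair of arrays, not the error of a repeat experiment.

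At least 2-fold higher after cholic acid were 9 of the 26 genes measured on both arrays, among them Cxcl10, Ccl3, Ccl4, Xcl1, Cxcr3, Ccr9, Ccr6 and Cxcr5, where 6.58% of all 12938 genes measured on both arrays were that much higher. At least 2-fold lower were 2, Ccl24 and Ccl28, where 2.05% of all genes were. At least 3-fold higher were 4 (1.38% of all genes) and 3-fold lower 1 (0.325%). Of all genes 2-fold apart, 76.25% were higher, but 44.46% to 60.25% under the other scalings that use the probes themselves and 2.79% when scaled on the spike-in control spots. The chemokine system genes gave 8 higher and 2 lower under each of those probe-based scalings, where 3.35% to 4.45% of all genes were higher and 2.94% to 4.18% lower. With the spike-ins they gave 4 higher and 4 lower, where 0.889% of all genes were higher and 31.0% lower. In the main scaling 17 of the 26 lay more than 1 spread from 0, where 36.6% of all genes did, and 12 more than 2 spreads, where 10.3% did. The median difference of the 26 was 0.56, or 0.48 above the 0.08 of all genes. Scaling on spike-ins moved the median of all genes by -0.86 and turned the members' own median to -0.30, while their distance from all genes stayed at 0.48.

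By class, the distance of the median from that of all genes was 0.10 for the 6 epithelial ligands, 0.33 for the 12 interferon-induced, immune cell and stromal ligands together, and 1.1 for the 8 receptors. Over all 11 settings that recompute values or probe filters, this distance ran from 0.69 to 1.12 for receptors. For the epithelial ligands it ran from -0.09, with a looser detection flag, to 0.12. Without Cxcl11 the distance of these other ligands was 0.04 over 11 genes. Ligands at least 2-fold higher numbered 4 of 18 and receptors 5 of 8. Genes with dim probes were more often higher throughout these arrays, since 10.1% of the genes below the median brightness were at least 2-fold higher and 3.01% of those above it, while 1.81% and 2.29% were at least 2-fold lower. Of the 8 receptors 7 lay in that dimmer part, the exception being Cxcr6, and the part of brightness in their differences was not tested.

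**Figure D2:**
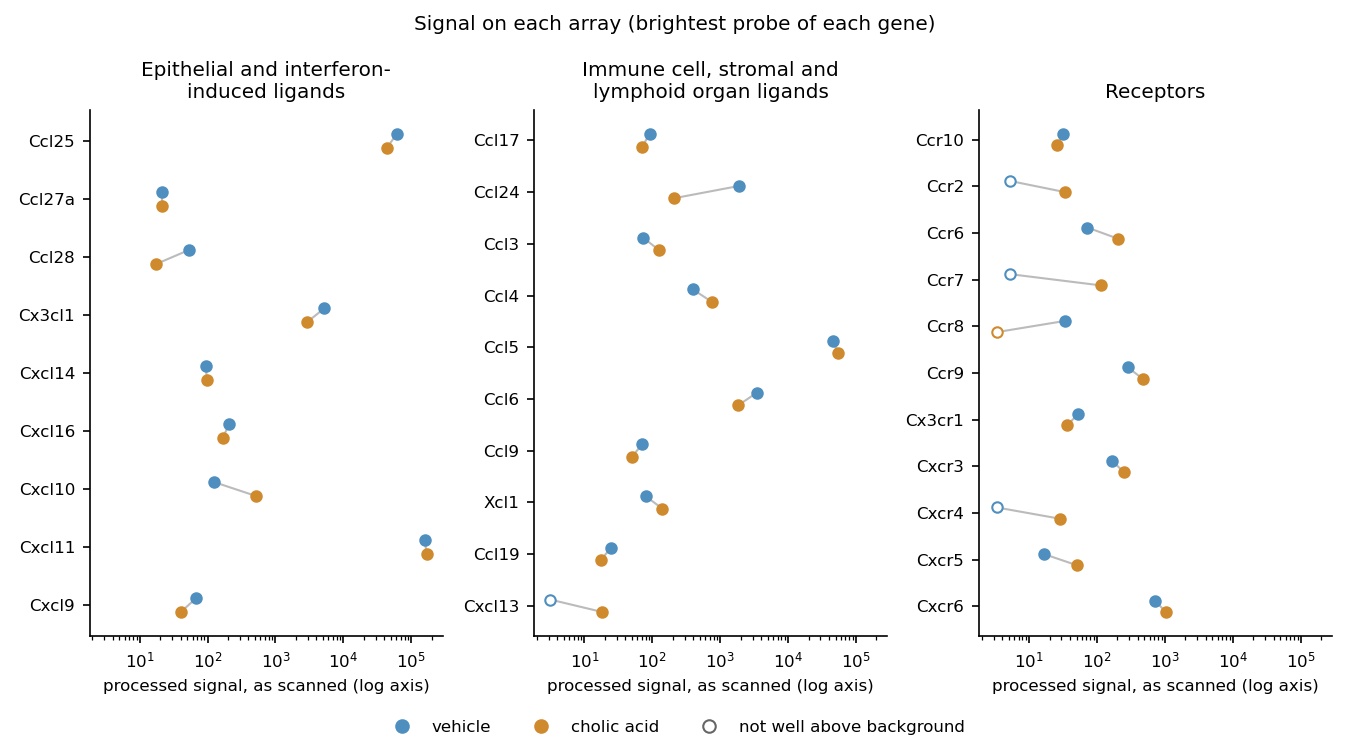
Processed signal as scanned (horizontal log axis) on the vehicle array (blue) and the cholic acid array (orange) for the genes reported that were above background on at least 1 array, using each gene's brightest probe, with open circles for spots not well above background. Ccl24 went from 1910 to 206 and Cxcl10 from 125 to 517, while the spots of Ccl25, Cxcl14 and Cxcl11 lay close together on the 2 arrays.

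Of the 6 epithelial ligands measured, Ccl28 alone was at least 2-fold apart. The main probe of Ccl25, the ligand of Ccr9, read 60900 in vehicle and 43300 after cholic acid, which after scaling is a difference of 0.02. Its other probes were faint and disagreed, one at 20.2 and 26.8, one at 42.3 and 22.4, and one at 20.1 and 11.8 that was above background in vehicle alone. The mean over the 3 Ccl25 probes measured on both arrays was 0.18, with a sign that turned under 5 alternative settings, so no direction is given.

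Cx3cl1, fractalkine, a membrane-bound ligand of Cx3cr1, read 5270 and 2930, a difference of -0.33 against a spread of 0.37. Cxcl16, the membrane-bound ligand of Cxcr6, read 209 and 166, a difference of 0.18 that turned below 0 under 2 of the alternative scalings. Neither transmembrane ligand was near 2-fold. Cxcl14, a ligand that epithelia make without an inflammatory stimulus, read 94.1 and 97.6, a difference of 0.57 against a spread of 0.50, which was below 0 with spike-in scaling.

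Ccl27a, a ligand of Ccr10 best known from skin, had 1 probe on both arrays, at 21.0 and 21.6 and a difference of 0.56 against a spread of 0.46. Its other probes, at 19.4 and 11.3 and at 20.3 and 12.9, were above background in vehicle alone, so the probes of this gene disagree. Near-identical gene copies lie around Ccl27a and Ccl19 on mouse chromosome 4, and these probes may not separate them. Ccl28, the mucosal ligand of Ccr10, read 52.4 in vehicle and 17.4 after cholic acid. That was a 2.11-fold lower value, a difference of -1.07 with a spread of 0.56, from a single dim probe. It stayed below 0 in 10 of 10 alternatives but shrank to -0.06 with normexp background correction, which compresses dim signals by adding an offset. The 5 other epithelial ligands were above background on neither array. They are Ccl20, which draws Ccr6-bearing cells to lymphoid follicles, the neutrophil attractants Cxcl1 and Cxcl5, and Cxcl15 and Cxcl17.

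The interferon-induced ligands behaved unevenly. Cxcl10 read 125 in vehicle and 517 after cholic acid on 1 probe, 5.92-fold higher, a difference of 2.56 against a spread of 0.41 and above that of 99.8% of all genes. It was at least 2-fold higher in 10 of 10 alternatives, from 1.70 with spike-ins up to 2.56. The other Cxcl10 probe sat at the software's surrogate value on both arrays, 3.06 and 2.85, and gives no second reading. Cxcl9 had 2 probes on both arrays, at 53.2 and 47.5 and at 68.0 and 40.4. Their differences of 0.35 and -0.23 have opposite signs, and their mean of 0.06 turned below 0 in 8 alternatives. The Cxcl11 probes read 1690 and 2040, and 158000 and 168000, differences of 0.79 and 0.61, with the limits on these probes given above and a sign that turned with spike-ins.

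Cxcl9, Cxcl10 and Cxcl11 lie within 36.4 kb on chromosome 5, and promoter windows of the first and the second are shown as a description. The windows cover unlike distances from the start, and any part of their letters in the signals was not tested. The windows are from RefSeq, build GRCm38.p6, on the minus strand, 5′ to 3′. Capitals mark matches to a pattern of interferon response elements (GAAA, any 2 bases, GAAA) and to a pattern of NF-κB sites (GGG, any 3 bases, T, any base, CC), searched on both strands of the 250 bases before the start.
Cxcl10, bases 230 to 81 before the start, chr5:92348970-92349119: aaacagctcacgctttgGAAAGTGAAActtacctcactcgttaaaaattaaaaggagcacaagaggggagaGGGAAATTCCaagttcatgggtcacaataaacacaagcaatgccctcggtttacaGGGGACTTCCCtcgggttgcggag
Cxcl9, bases 150 to 1 before the start, chr5:92328080-92328229: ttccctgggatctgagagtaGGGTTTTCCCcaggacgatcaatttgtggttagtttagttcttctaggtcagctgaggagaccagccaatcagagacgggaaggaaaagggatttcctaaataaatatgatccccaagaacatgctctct
The Cxcl10 window holds 1 match to the interferon pattern and 3 to the NF-κB pattern, the last 2 overlapping in 1 capital run, and the Cxcl9 window holds 1 NF-κB match. Promoters were matched for 39 of the 55 genes, leaving Cxcl11, Ccl24, Ccl4, Ccl5 and Ccr7 among those without one. The interferon pattern was found in 3 of the 39, Cxcl10, Cxcl14 and Ccl19, against 2.98% of all 32851 promoters. The NF-κB pattern was found in 13 of 39 (33.3%), against 14.9% of all promoters, and 7 of those 13 genes were above background on neither array. A pattern that STAT factors bind (TTC, any 3 bases, GAA) was found in 4 of 39 against 7.02% of all promoters. A match is a description of letters and not a bound site.

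The ligands known from immune cells went in both directions. Ccl24, or eotaxin-2, which attracts eosinophils through Ccr3, read 1910 in vehicle and 206 after cholic acid. That was 6.48-fold lower, a difference of -2.70 against a spread of 0.39, lower than that of nearly every other gene measured and at least 2-fold lower in 11 of 11 alternatives. Its receptor Ccr3 was above background on neither array, at 16.9 and 15.9, and the other eotaxins Ccl11 and Ccl26 were not either. The eosinophil markers Epx and Prg2 were also above background on neither array, and Siglecf and Il5ra read 30.1 and 26.0, and 26.9 and 33.7, differences of 0.31 and 0.84.

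Of the 8 measured immune cell ligands, 3 were at least 2-fold higher, 1 was at least 2-fold lower and 4 were within 2-fold. Ccl3, a ligand of activated T cells and macrophages, read 73.4 and 125, 2.44-fold higher with a difference of 1.28. Ccl4, its close relative, read 395 and 748, 2.71-fold higher with a difference of 1.44. Ccl5, which is stored in cytotoxic granules, read 45400 and 55300, a difference of 0.80. Xcl1, lymphotactin, the ligand of Xcr1 on dendritic cells, read 79.9 and 140, 2.51-fold higher with a difference of 1.33. Each of these lay beyond 1 spread (0.37 to 0.50), and Ccl3, Ccl4 and Xcl1 were above 0 in every alternative run, down to 0.42, 0.58 and 0.46 with spike-in scaling, where Ccl5 was -0.06.

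The remaining immune cell ligands measured lay within 2-fold. Ccl6, a Ccr1 ligand of macrophages, read 3450 and 1860, a difference of -0.37 that stayed below 0 in 11 of 11 alternatives. Ccl9, another Ccr1 ligand, read 70.7 and 50, a difference of 0.02, and Ccl17, a dendritic cell ligand of Ccr4, read 92.0 and 70.3, a difference of 0.13. The last 2 turned below 0 in 7 alternatives each. The other 9 immune cell ligands, Ccl1, Ccl2, Ccl7, Ccl8, Ccl12, Ccl22, Ccl26, Cxcl2 and Cxcl3, were above background on neither array.

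Ccl2, a monocyte attractant through Ccr2, was spotted 10 times on each array, which shows what lies under that label. Its vehicle spots read 2.91 to 5.46 with a median of 3.34, and its cholic acid spots 3.07 to 10.6 with a median of 5.77. No spot was well above background on either array, but 1 vehicle spot and 9 cholic acid spots passed the software's looser flag for a positive and significant signal. Of the 30 probes above background on neither array, 16 held on both arrays a surrogate, a value that the software puts in place of a signal too dim to measure. Their differences were all between 0.40 and 0.43, which reflects the scaling and carries no measurement.

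Of the stromal and lymphoid organ ligands, Ccl19, a ligand of Ccr7, read 24.5 and 17.4 on its measured probe, a difference of 0.02. Its other probes, at 15.8 and 15.2 and at 2.92 and 4.58, were not above background in vehicle. Cxcl13, the follicle ligand of Cxcr5, was above background after cholic acid alone, at 3.15 and 18.3. Its bound was at least 1.79-fold higher, a bound being the bright value over the lowest signal that the dim array could still call above background. With spike-in scaling that Cxcl13 bound was under 1, so no direction holds across scalings. Ccl11 and Cxcl12 were above background on neither array.

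**Figure D3:**
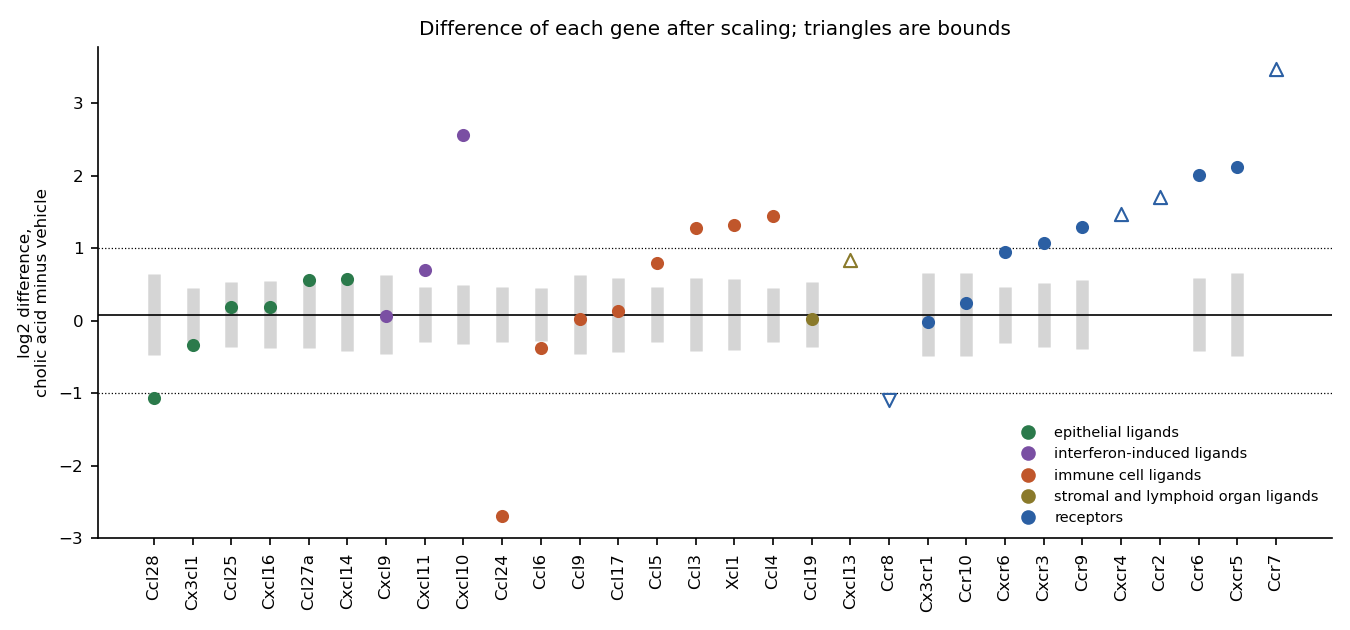
Log2 difference of each gene reported, cholic acid minus vehicle after scaling (vertical axis), by class, as dots for genes measured on both arrays and open triangles for bounds from genes above background on 1 array. Grey bars show 1 spread either side of the median of all genes (line), and dotted lines mark 2-fold. Cxcr5, Ccr6 and Cxcl10 lie highest among the dots and Ccl24 lowest, and these keep their direction under every alternative run, whereas Ccl9, Ccl17, Ccl19, Ccl25, Cxcl9, Cxcl16 and Ccr10 change sign in 2 or more and Ccl5, Ccl27a, Cxcl11, Cxcl14 and Cx3cr1 in 1.

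The receptors measured on both arrays were mostly higher after cholic acid, 7 of 8 above 0 where 57.5% of all genes were, and 5 of 8 at least 2-fold. Cxcr5, the follicle-homing receptor of B cells and follicular T cells, read 16.7 and 50.9, 4.36-fold higher with a difference of 2.12. That fold rests on 1 probe whose vehicle signal was close to 14.6, the lowest called above background on that array. Ccr6, carried by B cells and by T cells of the interleukin-17 type, read 72.2 and 204, 4.04-fold higher with a difference of 2.02. The spreads were 0.58 and 0.50, and both receptors were at least 2-fold higher in 10 of 10 alternatives. The lowest differences were 1.02 for Cxcr5, with normexp, and 1.15 for Ccr6, with spike-ins.

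Ccr9, the gut-homing receptor of T cells, agreed between its 2 probes, which read 286 and 470, and 23.5 and 41.9, differences of 1.23 and 1.35. The mean was 2.45-fold, at least 2-fold in 9 of 11 alternatives. Cxcr6, found on resident T cells and innate lymphoid cells, had probes at 440 and 558 and at 723 and 1030, differences of 0.86 and 1.03 with a mean of 0.94, or 1.92-fold. Cxcr3, the receptor of activated T cells for Cxcl9 to Cxcl11, read 168 and 247, 2.10-fold higher with a difference of 1.07. These last lie just either side of the 2-fold limit, and Cxcr3 kept 2-fold in only 2 of 10 alternatives, with values from 0.21 to 1.07. All 3 stayed above 0 in every alternative.

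The other receptors showed less. Ccr10 read 31.5 and 26.1, a difference of 0.25 that turned below 0 in 4 alternatives. Cx3cr1, a receptor of intestinal macrophages, read 52.7 and 36.2, a difference of -0.03, and turned above 0 with normexp. Neither differed from the bulk of genes by its spread.

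Above background after cholic acid alone were 3 receptors. Ccr7, which brings naive lymphocytes and dendritic cells to T cell zones, read 5.29 and 113, at least 11.1-fold higher. Ccr2, the monocyte receptor of Ccl2, read 5.16 and 33.4, at least 3.27-fold higher, and Cxcr4, the receptor of Cxcl12, read 3.36 and 28.2, at least 2.76-fold higher. Of all 761 genes above background after cholic acid alone, 49.0% had a bound of at least 2-fold. Across the other scalings tried, the lowest bounds came with spike-ins and were 6.09 for Ccr7, 1.80 for Ccr2 and 1.52 for Cxcr4. In the opposite direction, Ccr8, a receptor of skin-homing and regulatory T cells, read 34.4 and 3.42 on 1 probe, at least 2.14-fold lower, while its other probe was at a surrogate value on both arrays (3.48 and 3.26). The 8 other receptors, Ccr1, Ccr1l1, Ccr3, Ccr4, Cxcr1, Cxcr2, Xcr1 and Cxcr7, an atypical receptor now named Ackr3, were above background on neither array.

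Set against their ligands, 17 receptors had a ligand on a list of pairs written for this comparison, and for 6 of them the receptor and at least 1 ligand were measured on both arrays. For Cxcr3, at 1.07, the ligands ranged from 0.06 for Cxcl9 to 2.56 for Cxcl10. Ccr9 at 1.29 stood beside Ccl25 at 0.18, and Cxcr6 at 0.94 beside Cxcl16 at 0.18, so in both pairs the lymphocyte receptor had the higher difference. Ccr10 at 0.25 stood beside Ccl27a at 0.56 and Ccl28 at -1.07, and Cx3cr1 at -0.03 beside Cx3cl1 at -0.33.

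For 4 receptors above background on neither array, Ccr1, Ccr3, Ccr4 and Xcr1, a ligand was measured on both arrays, Ccl24 and Xcl1 among them. For 4 others, Ccr2, Ccr6, Ccr8 and Cxcr4, the receptor was above background on at least 1 array and no listed ligand was on either. Neither side of the Cxcr2 system, which recruits neutrophils, was above background.

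Many chemokine genes lie in clusters. Of all named genes 53.8% were measured on both arrays. Of 7 clusters picked by hand, without a distance rule, 4 were all or none in this respect and 3 mixed. Other close neighbours were not counted. Examples are Cxcr2 and Cxcr1 on chromosome 1, on neither array, and Cx3cr1 and Ccr8 on chromosome 9, of which Cx3cr1 alone was measured on both. On chromosome 11 none of the 6 ligands Ccl2, Ccl7, Ccl11, Ccl12, Ccl8 and Ccl1 within 139.9 kb (chr11:81850650-81990510, mm9) was above background on either array. The 5 ligands Ccl5, Ccl9, Ccl6, Ccl3 and Ccl4 within 138.8 kb (chr11:83339296-83478111) were all measured on both. On chromosome 5 none of the 5 ligands Cxcl5, Cxcl3, Cxcl15, Cxcl1 and Cxcl2 within 144.1 kb (chr5:91190490-91334593) was above background, and 3 of 3 Cxcr3 ligands (chr5:92752191-92788626) were measured on both arrays. Those Cxcr3 ligands include Cxcl11, whose probes hold words that recur elsewhere in the genome. The mixed clusters were the receptors on chromosome 9, with 3 of 8 measured on both arrays and 1 after cholic acid alone, Ccl22, Cx3cl1 and Ccl17 on chromosome 8, with 2 of 3, and Ccl26 and Ccl24 on chromosome 5, with 1 of 2.

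Other genes of the chemokine system were taken from lists by function. Of 22 genes of receptor signalling, 20 were measured on both arrays, with a median of 0.44 against 0.08 for all genes. Of those, 5 were at least 2-fold higher and 0 at least 2-fold lower, against 6.58% and 2.05% of all genes. They were Pik3cg (2.79-fold), the phosphoinositide 3-kinase that Gβγ activates, the exchange factor Vav1 (2.14-fold), Gng2 (2.10-fold), the regulator Rgs1 (2.08-fold) and the leukocyte GTPase Rac2 (2.07-fold). Of 8 genes of gut homing adhesion, 6 were measured and all 6 were above 0 (57.5% of all genes), with a median of 0.82. Itgb7, a chain of the gut-homing integrins, was 2.10-fold higher and alone reached 2-fold (6.58% of all genes). The proteases Dpp4, Adam10 and Adam17, which trim or shed chemokines, were within 0.43 of 0, the farthest being Adam17 at -0.43 and Adam10 at -0.35. Of 5 atypical receptors and decoys, Ccrl2 alone was measured on both arrays, at 0.49, and the platelet chemokines Pf4 and Ppbp were above background on neither.

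Of 27 regulators of chemokine genes 20 were measured on both arrays, with a median of 0.02. Of those, 10 were above 0 (57.5% of all genes) and 1 was at least 2-fold apart, on the higher side (6.58% of all genes). That was Ifng, the interferon-γ gene of T cells and natural killer cells, which read 48.6 and 115, 3.38-fold higher. The 19 others ran from -0.74 for Irf7, which read 1360 and 570, to 0.94 for Nfkb2, which read 294 and 393. The inflammatory cytokine genes Tnf, Il1b and Il17a were above background on neither array.

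The material is labelled as epithelial cells, and all 13 enterocyte markers listed were measured on both arrays, with a median difference of -0.27. Markers of other cells were measured too, and most of those listed for T cells and for B and plasma cells were higher along with the receptors. Of 13 T cell markers 13 were measured, 12 above 0 (57.5% of all genes) and 6 at least 2-fold higher (6.58% of all genes), with a median of 0.87, and their summed scaled signal (in units of the array's 75th percentile) was 112 in vehicle and 173 after cholic acid. The 6 were Cd2 (5.92-fold), Lat (5.20-fold), Gzmb (2.25-fold), Cd3d (2.13-fold), Cd8b1 (2.10-fold) and Zap70 (2.09-fold), while the 1 marker below 0, Cd4, read 13200 and 5650, a difference of -0.71. Most of the T cell sum on both arrays came from Gzma, which read 87500 and 97600, a difference of 0.67. Of 7 B and plasma cell markers, 5 were measured with a median of 1.54 and 4 at least 2-fold higher (6.58% of all genes), and the summed signal was 3.20 and 4.46. Those were Cd79b (6.83-fold), Pou2af1 (6.06-fold), Cd79a (2.91-fold) and Mzb1 (2.73-fold), and the B cell gene Ms4a1 was above background after cholic acid alone, at least 16.1-fold higher. Jchain, a plasma cell gene named after its value was seen, read 3100 and 2190, a difference of 0.02. It made up most of that summed signal on both arrays.

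Myeloid markers differed less, with a median of 0.27 over 7 measured and a summed signal of 23.4 and 21.1. Of these Itgax alone was at least 2-fold higher (2.09-fold), where 6.58% of all genes were, a share that applies to each list below. Most of the myeloid sum on both arrays came from Itgam, which read 20100 and 11900. Its mean difference was -0.11, from probes of opposite sign. Lyz2 was above background after cholic acid alone, at least 2.74-fold higher, and Adgre1 in vehicle alone, at least 1.52-fold lower. Among fibroblast markers 5 were measured, with a median of 0.57 and a summed signal of 0.988 and 3.03. Thy1 (4.11-fold) and Dcn (3.03-fold) were at least 2-fold higher. The sum mostly follows Thy1, which read 598 and 1720 and is not particular to fibroblasts. The others measured, Col1a1, Col1a2 and Col3a1, lay at 0.46, 0.57 and 0.46, and Pdgfra was above background on neither array. Smooth muscle markers had a median of 0.98 over 3 measured, with sums of 0.750 and 0.934 and Cnn1 3.34-fold higher. The Cnn1 vehicle signal of 15.8 was close to 14.6, the lowest called above background. Tagln, at 734 and 593, made up most of these sums, and Myh11 and Des were above background on neither array. Endothelial markers had a median of 0.23 over 3 and sums of 6.13 and 7.55. Most of those sums came from Kdr, which read 6430 and 5550, a difference of 0.40. Cdh5 was above background on neither array and Vwf in vehicle alone. Of the 5 neutrophil markers S100a8, S100a9 and Mpo were above background on neither array, Csf3r read 17500 and 19100, a difference of 0.64, and Ly6g read 62.7 and 34.1, a difference of -0.36. Of the 5 distal gut markers 3 were at least 2-fold higher (6.58% of all genes), Fabp6 (39.9-fold), Slc10a2 (4.79-fold) and Gcg (2.02-fold). Among the others Cubn, named after its value was seen, read 9000 and 3680, a difference of -0.94, and the list's summed signal was 9.69 and 9.03. Most of that sum on both arrays came from Cubn, while Fabp6 read 47.3 and 1320. The part of cell content, and of where each segment was cut, in the chemokine and receptor differences was not tested. In such bulk RNA more cells of a type and more RNA per cell cannot be told apart.

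**Figure D4:**
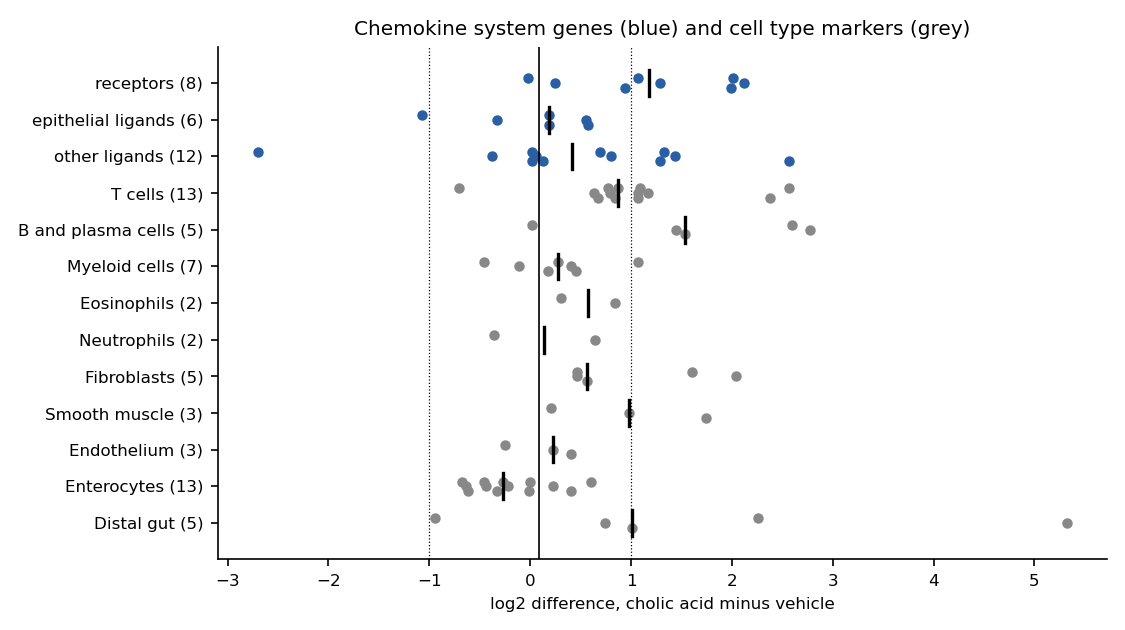
Log2 difference, cholic acid minus vehicle (horizontal axis), of single genes measured on both arrays (dots) with each group's median (black bar). Receptors and ligands are blue and cell type markers grey, the number measured stands in parentheses, the line is the median of all genes and dotted lines mark 2-fold. Receptors (median 1.18), T cell markers (0.87) and B and plasma cell markers (1.54) lie to the right, and epithelial ligands (0.18) and enterocyte markers (-0.27) near the middle. With spike-in scaling every value shifts by -0.86, which turns the medians of both ligand groups below 0 but not that of the receptors.

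Across the alternative settings the genes separated by how far they could be moved. Beyond 2-fold in every alternative in which they were measured were Ccl24, Cxcl10, Ccr6 and Cxcr5. Ccl4 was so in 10 of 11, Ccl28 in 9 of 10, Ccr9 in 9 of 11, and Ccl3 and Xcl1 in 8 of 10. The Cxcr5 vehicle signal of 16.7 was close to the lowest called above background.

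**Figure D5:**
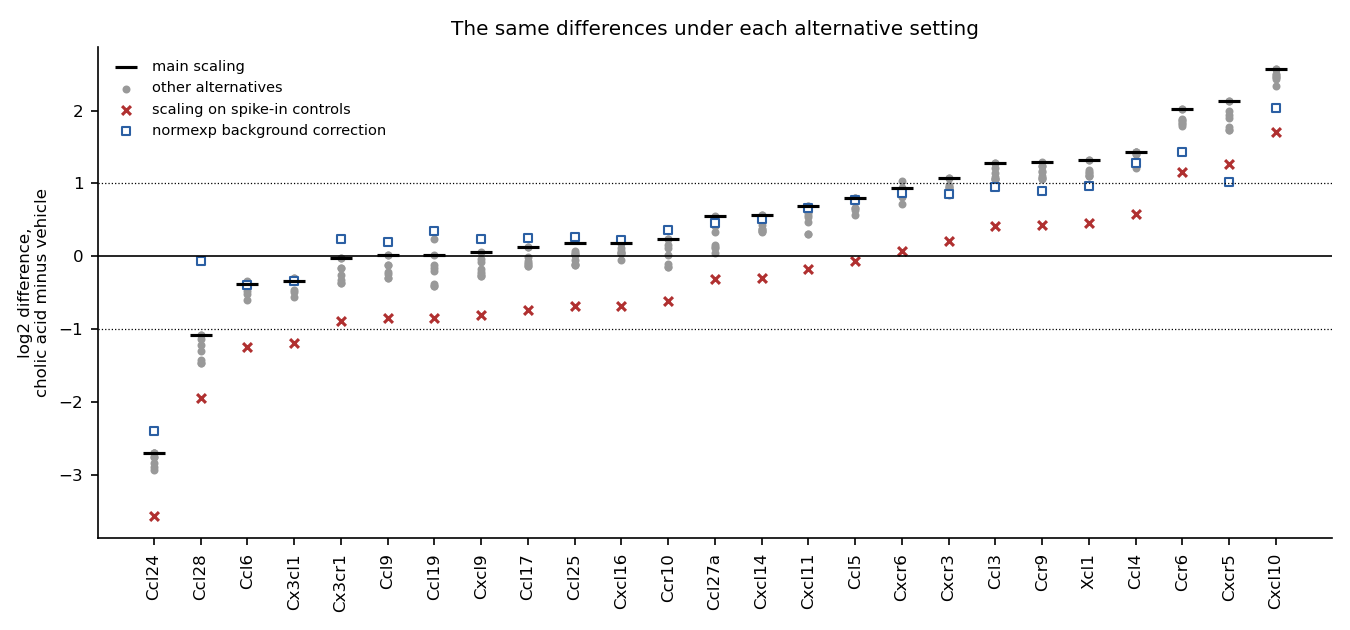
Log2 difference of each gene reported and measured on both arrays (vertical axis), ordered by the main value (black dash), with the value under scaling on spike-in controls (red cross), normexp background correction (open square) and the other alternatives (grey dots). Dotted lines mark 2-fold. Spike-in scaling lowers every gene by 0.86 and takes the 11 genes from Ccl9 to Ccl5 in this order below 0, while Ccl24 stays below -2 and Cxcl10 above 1.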

How the data were processed

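RNA was amplified to cRNA and labelled with Cy3, per the labels' protocols. Spots were read as intensities by Agilent Feature Extraction (10.7.1.1 per the file headers, 9.5.1.1 per the submitters' processing notes) on array design 028005, whose probe positions refer to mm9. From these intensities the software made, before the files were deposited, a processed signal by subtracting background and removing spatial trends, and put surrogates in place of very dim signals. The authors also deposited a value table on a linear scale that behaved as quantile-normalized and served as an alternative.

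Of 62976 spots, 3671 were controls, and outlier-flagged spots (124 in vehicle, 119 after cholic acid, 3 of them on probes of the genes described) were left out. No spot was saturated, and of 308 negative control spots 1 on each array was called well above background. Log2 signals were averaged per probe. From each array was then subtracted its 75th percentile, taken over the 22613 probes that both arrays called well above background. A gene's value averages those of its probes that passed this flag on both arrays. Where 1 array alone passed it, the gene got a bound, in which the dim side is the probe's own value or, if higher, the lowest passing signal of that array (14.6 in vehicle, 11.2 after cholic acid). Of the 26 genes measured on both arrays, 21 rest on 1 probe. Across 227 probes spotted 10 times, the SD of a log2 difference between spots had a median of 0.09, which covers spotting alone. Probes were named by accession, current symbol or synonym through a RefSeq table (GRCm38.p6), with 22483 left unnamed. Genes called are those at least 2-fold apart, with no test, and the number of arrays limits the precision. All 55 genes enter the counts, and of other lists the genes at least 2-fold apart are named, or otherwise the pair with the largest differences. Some genes that this rule names are counted and not reported singly here. The alternatives were 6 other scalings, normexp, the deposited values and a looser flag for dim probes. Further ones were a cut to passing probes brighter than their median on both arrays, 1 probe per gene (its brightest) and other fold limits. A search for cysteine patterns of the proteins was planned and not run, since no protein table was used here. The members, classes and lists were chosen with earlier results of these data known. Scripts ran in Python 3.11.15 with numpy 2.4.6, pandas 2.3.3 and statsmodels 0.14.6, and R 4.3.3 with limma 3.58.1 for normexp, and were tested on simulated data.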

Additional observations from a re-analysis of the deposited data

How the results depend on the processing

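Medians are given in the order all genes described, epithelial ligands, other ligands and receptors, and are 0.56, 0.18, 0.41 and 1.18 in the main setting. They became 0.33, -0.045, 0.18 and 0.95 with the 75th percentile of every probe but controls, 0.43, 0.049, 0.28 and 1.05 with centring on the median, 0.22, -0.036, 0.088 and 1.01 with quantile normalization, and 0.27, -0.014, 0.25 and 1.04 with loess. The authors' deposited values gave 0.22, -0.039, 0.088 and 1.01, and a lowess on probe GC gave 0.42, 0.075, 0.25 and 1.04. Spike-in scaling gave -0.30, -0.68, -0.45 and 0.32, with 4 genes at least 2-fold higher and 4 lower in place of 9 and 2. Under it 0.889% of all genes were that much higher and 31.0% lower. Those scalings moved the median of all genes by -0.23, -0.13, -0.15, -0.12, -0.15, -0.13 and -0.86 in the same order. Normexp moved it by 0.10 and gave 4 higher (2.11% of all genes), 1 lower (0.804%) and a receptor median of 0.88. The looser positive and significant flag measured 35 genes and gave 14 higher and 3 lower, where 11.9% of all genes were higher and 2.76% lower. Its medians were 0.063 for epithelial and 0.70 for other ligands. Brighter probes alone left 10 genes, 2 higher (2.75% of all genes) and 1 lower (1.9%), with medians of 0.44, 0.024, 0.70 and 1.09. A 3-fold limit gave 4 higher (1.38% of all genes) and 1 lower (0.325%). Leaving out Cxcl11, an alternative chosen after seeing the data, gave 0.13 for the other ligands. The cause of these moves was not tested. No gene at least 2-fold apart changed sign in any alternative run. No paired analysis was possible because each condition has 1 array, and for the same reason no replicate could be left out. The 24 genes above background on neither array have no direction at this signal over background.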
